A study of Mus musculus with 5 samples.

Results

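The cytosolic ribosomal protein genes were taken by symbol. A gene was a member when its name had the form Rpl or Rps followed by a number, with an optional copy letter, or was Rplp0, Rplp1, Rplp2 or Rpsa, and when at least 1000 of its unique molecular identifiers (UMIs, tags that count each captured mRNA once) were found over all barcodes. The name fitted 83 of 32285 genes and the minimum left 80 members, 32 of the small and 48 of the large ribosomal subunit. Among measured values, the members were chosen by these UMI totals alone. Just outside the minimum were Rpl10l with 2 UMIs, Rpl3l with 340 and Rpl39l with 571, and the lowest members were Rpl7l1 with 128335 and Rps27l with 885968.

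The study injected C57BL/6 mice intravenously with CMM cells, a GFP-marked mouse acute myeloid leukaemia with inv(16). When about 1% of blood cells were GFP+, the mice received 3 intravenous injections, one every other day, of PBS or of CpG-STAT3dODN. The latter is an oligodeoxynucleotide that acts as a decoy binding site for STAT3, a transcription factor, and carries a CpG stretch, the ligand of the receptor TLR9. GFP+c-Kit+ cells were then sorted and profiled by 10x Genomics 3' single-cell RNA sequencing, with 1 library after PBS and 4 after CpG-STAT3dODN, called Decoy 2, Decoy 3, Decoy 5 and Decoy 6 after their labels. All libraries share the leukaemia, the strain and the sort, and the age and sex of the mice are not given in the sources used here.

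Ribosomal proteins surround the ribosomal RNA of the subunits, the small one reading the mRNA and the large one joining amino acids. Cells make most of them in equal numbers of molecules, and their mRNAs begin with a pyrimidine tract through which growth signals adjust translation. Growing and dividing blood cells carry many of these mRNAs, whereas mature granulocytes carry few. Some members have a close copy elsewhere in the genome that encodes nearly the same protein and is used in other tissues or under stress.

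4 coding sequences are shown because the results turn on short members and on a pair of copies. They are given from the start to the stop codon, from the GENCODE vM21 annotation on build GRCm38 of the genes' own strands. Rpl41 (chr10:128548114-128549305, minus strand) and Rpl39 (chrX:37082520-37085402, minus strand) have the shortest coding sequences of all members, 75 and 153 bases without the stop codon, and capitals mark the start and stop codons.
Rpl41: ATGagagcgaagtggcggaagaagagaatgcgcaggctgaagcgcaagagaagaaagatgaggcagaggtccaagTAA
Rpl39: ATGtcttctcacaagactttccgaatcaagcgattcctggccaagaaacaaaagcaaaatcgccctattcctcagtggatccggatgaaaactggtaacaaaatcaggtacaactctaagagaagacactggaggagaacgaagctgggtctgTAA
Rps27 (chr3:90212522-90213651, minus strand) and Rps27l (chr9:66946086-66949516, plus strand) are copies of equal length whose mRNAs stood at different levels in these cells, and capitals mark the bases at which they differ.
Rps27: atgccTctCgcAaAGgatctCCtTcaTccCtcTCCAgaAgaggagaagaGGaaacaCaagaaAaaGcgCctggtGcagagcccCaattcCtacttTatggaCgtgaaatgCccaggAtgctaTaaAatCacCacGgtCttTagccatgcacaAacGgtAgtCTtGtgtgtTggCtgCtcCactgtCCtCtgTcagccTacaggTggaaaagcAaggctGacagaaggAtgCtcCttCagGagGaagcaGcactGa
Rps27l: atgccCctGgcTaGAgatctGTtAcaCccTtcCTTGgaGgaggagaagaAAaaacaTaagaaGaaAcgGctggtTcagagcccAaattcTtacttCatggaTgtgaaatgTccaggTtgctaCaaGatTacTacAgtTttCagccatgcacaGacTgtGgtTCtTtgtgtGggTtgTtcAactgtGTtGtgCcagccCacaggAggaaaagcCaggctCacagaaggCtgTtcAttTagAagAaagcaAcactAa
The pair differed at 61 of 255 bases, an identity of 76.1%. Counting the stop codon with the 84 codons before it, 54 codons differed and 3 of those encoded another amino acid. A further near copy of Rps27, Rps27rt, held 30893 UMIs over all barcodes and could share reads with it.

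The libraries held 37035 barcodes and between 56490098 and 579333323 UMIs, and 31040 cells were kept, 16034 from PBS and 1933 to 6250 from each Decoy library. Any 2 libraries shared at most 45 barcodes (PBS and Decoy 2), and at most 0.695% of the smaller library (PBS and Decoy 6). Clustering without the ribosomal genes gave 10 classes with at least 50 cells in 3 or more libraries, named from marker lists except for a large cluster led by Cited1, in which too few markers passed. The Cited1 cluster, a mast cell and basophil-like class (mast/basophil-like from here on) and an erythroid-like class led by Esx1 carried Xist at 848 to 1250 CPM (a gene's UMIs scaled to one total for every class and library), with summed Y-linked genes at 0.178 to 1.42 CPM. In the other classes the Y-linked genes stood at 46.8 to 179 CPM and Xist at 0 to 293 CPM. Kit, the gene of the sorting marker, was at 7.56 to 162 CPM in the first 3 classes and at 0 to 46.0 CPM in the others, so the sorted cells included classes with little Kit mRNA. The T cell-like class also held 7 NK cell markers and the progenitor-like class, named from primary granule genes, 5 monocyte markers. Decoy 5 held 4 cells of the Cited1 cluster and none of the mast/basophil-like class, so results on these classes rest on 3 Decoy libraries.

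The members together made up 33.5% to 39.2% of the UMIs of the Cited1 cluster, mast/basophil-like cells and B cell-like cells, and far less of those of macrophage-like and neutrophil-like cells. As a share of all UMIs of a class in a library, they held 36.9% in PBS and 39.2%, 37.7% and 38.8% in Decoy 2, 3 and 6 in the mast/basophil-like class. The Cited1 cluster held 33.5% in PBS and 35.4%, 35.7% and 35.7% in the same Decoy libraries. B cell-like cells held 35.01% in PBS and 37.2%, 35.2%, 38.0% and 37.6% in Decoy 2, 3, 5 and 6. In these 3 classes the PBS library lay below every Decoy library.

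The Esx1 erythroid-like class (3 libraries) held 33.6% to 34.5%, within the range of the 3 classes above. In PBS its 34.3% was above the 33.5% of the Cited1 cluster. Lower shares were found in the remaining classes. They were 30.7% to 31.0% in the erythroid-like class led by Car1 (3 Decoy libraries), 26.5% to 29.1% in T cell-like and 22.9% to 25.04% in progenitor-like cells (5 libraries each). Macrophage-like cells held 23.5% in PBS and 18.8%, 17.5%, 16.7% and 17.9% in Decoy 2, 3, 5 and 6, so here PBS lay above every Decoy library. Member UMIs per cell went the other way, at 2553 in PBS and 3452, 4597, 3537 and 4298 in the same Decoy libraries. All other UMIs per cell were 8294 in PBS and 14913 to 21652 in the Decoy libraries. Plasma cell-like cells held 15.4% to 15.9% (3 Decoy libraries). A share also depends on the other UMIs of a class, so the order of shares is not an order of member UMIs per cell. Plasma cell-like cells held 4616 to 4784 member UMIs per cell, and B cell-like cells, with higher shares, 2029 to 4536. Of the 10 classes, neutrophil-like cells had the lowest shares, with 12.1% in PBS and 12.3%, 6.99%, 8.18% and 12.5% in Decoy 2, 3, 5 and 6, while the median cell of a library held 3.23% to 5.54%. Haemoglobin-rich erythroid-like cells, which are not among the 10 because they had 551 cells in PBS and under 50 in each Decoy library, held 8.76% in PBS, below the neutrophil-like cells of that library. By the median cell of PBS the order was the reverse, with 6.95% in the haemoglobin-rich and 5.54% in the neutrophil-like cells. Exact (Clopper-Pearson) 95% binomial intervals, which cover counting error only, were narrow at these depths, for example 23.5% to 23.6% for macrophage-like cells of PBS and 6.94% to 7.03% for neutrophil-like cells of Decoy 3.

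Read as an order, neighbouring classes did not always differ beyond the spread of their libraries. The ranges of the mast/basophil-like and B cell-like classes overlapped, although the former was higher in 4 of 4 shared libraries. B cell-like cells were above the Cited1 cluster in 3 of 4, and the Cited1 cluster was above the Esx1 class in 2 of 3. The Esx1, Car1, T cell-like and progenitor-like classes had ranges that did not overlap. Progenitor-like cells were above macrophage-like cells in 4 of 5 libraries with overlapping ranges, and macrophage-like, plasma cell-like and neutrophil-like cells did not overlap. These ranges leave out sums of under 50 cells. Among those, plasma cell-like cells of Decoy 2 (36 cells) held 20.1%, within the macrophage-like range. The Car1 class in PBS (35 cells) held 28.8%, within the T cell-like range.

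**Figure D1:**
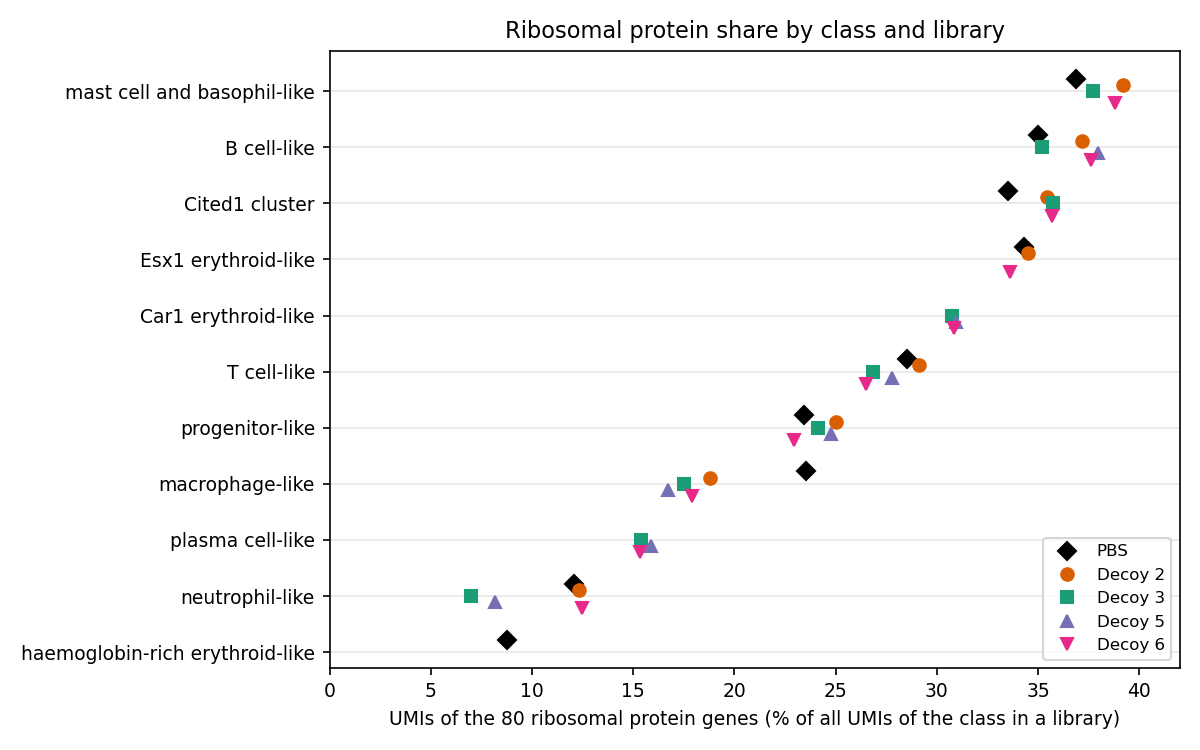
UMIs of the 80 ribosomal protein genes as a percentage of all UMIs of a class in a library, with 1 point per library of at least 50 cells. The mast/basophil-like, B cell-like, Cited1 and Esx1 classes lie between 33.5% and 39.2%, the neutrophil-like libraries between 6.99% and 12.5%, and in macrophage-like cells PBS, at 23.5%, lies apart from the Decoy libraries at 16.7% to 18.8%.

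Gene by gene, the members moved as a body between classes. Each class was compared with the mean of the other 9 in edgeR's quasi-likelihood test with library as a term, over 42 class and library sums, and a gene was called at a Benjamini-Hochberg adjusted p under 0.05. All 80 members were among the 12919 genes tested. In the Cited1 cluster 79 members were higher and 0 lower, where 39.5% of all genes tested were called higher and 28.5% lower. The same counts, 79 and 0, held in the mast/basophil-like class (37.6% of all genes higher and 27.6% lower) and in the Esx1 erythroid-like class (29.8% higher and 29% lower). In macrophage-like cells 80 of 80 members were lower, against 33.6% of all genes (42.8% higher), and in neutrophil-like cells 80 of 80, against 29.9% (31.2% higher). The median log2 difference of the members was 0.64 in the mast/basophil-like class, 0.44 in the Cited1 cluster, 0.43 in the Esx1 class, -0.68 in macrophage-like and -0.93 in neutrophil-like cells, while the median of all genes lay between -0.11 and 0.08 over the 10 classes.

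In the other classes the members divided. B cell-like cells had 69 higher and 2 lower (31.7% and 30.9% of all genes), with a median of 0.55, and the 2 lower members were Rps27l and Rpl7l1. Progenitor-like cells had 66 lower and 1 higher (33.3% of all genes in each direction; median -0.28), and the higher one was Rps27l. T cell-like cells had 46 lower and 1 higher, Rps15a (21.3% and 25.9%; median -0.17). The Car1 erythroid-like class had 43 higher and 1 lower, Rps24 (35.5% and 34.7%; median 0.19). Plasma cell-like cells had 27 lower and 5 higher (24.1% and 27.8%; median -0.09). There the share of members lower was above that of all genes, and the share higher was well below it. With RLE size factors in place of TMM the splits were 25 higher and 7 lower in the Car1 class and 4 higher and 25 lower in T cell-like cells, and 17 members were lower in plasma cell-like cells. Leaving out 1 Decoy library also lowered some counts. Without Decoy 3, 5 or 6 there were 21, 19 and 11 members lower in T cell-like cells, 12, 13 and 7 lower in plasma cell-like cells, and 21, 16 and 19 higher in the Car1 class. Progenitor-like cells had 32 lower without Decoy 6. RLE scaling moved the median of all genes in the Cited1 cluster from 0.04 to -0.08 and that of the members there from 0.44 to 0.33, and the sign of the members' median held in all 10 classes.

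**Figure D2:**
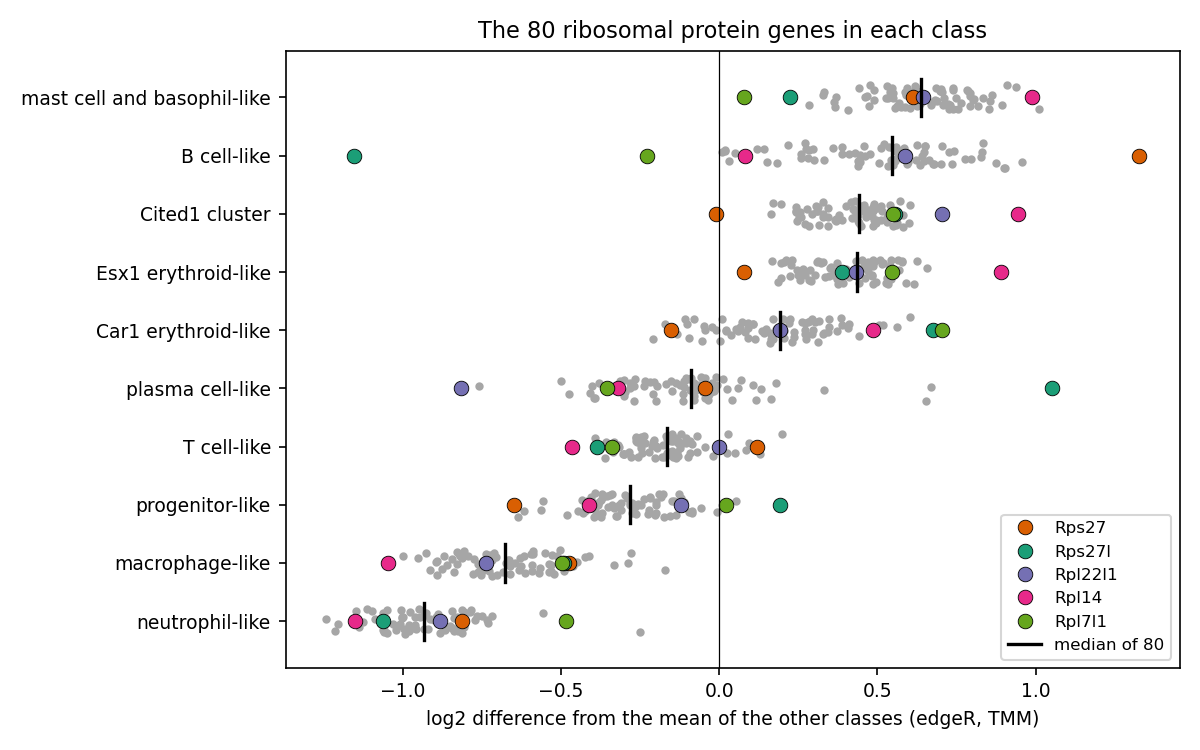
Log2 difference of each of the 80 members between a class and the mean of the other 9 classes, in edgeR with TMM scaling, with the median of the members as a black bar and 5 members in colour. 79 of 80 or 80 of 80 members were called higher in the mast/basophil-like, Cited1 and Esx1 classes and lower in macrophage-like and neutrophil-like cells, and Rps27 and Rps27l lie at opposite ends in B cell-like cells, at 1.33 and -1.15.

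The copies Rps27 and Rps27l, which encode almost the same small subunit protein, stood in very different proportion. Levels here are CPM over the plain total of a class in a library. They were not divided by length, since the 3' protocol counts an mRNA by its end. Whether the mRNAs of both copies were captured equally well was not tested. Rps27 stood at 5155 CPM in PBS and at 7413, 5931, 6511 and 6481 CPM in Decoy 2, 3, 5 and 6 in B cell-like cells, above its level in every other class and library. Rps27l was at 317 CPM in PBS and at 355, 302, 305 and 341 CPM in the same sums, below every library of the other classes but neutrophil-like cells. Against the mean of the other classes Rps27 was higher in B cell-like cells by 1.33 (log2, SE 0.05, edgeR adjusted p = 3.03e-21) and Rps27l lower by a log2 difference of -1.15 (SE 0.06, adjusted p = 1.01e-17).

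The ratio of Rps27 to Rps27l counts was 16.3 to 21.3 in the 5 libraries of B cell-like cells. It was 3.80 to 7.51 in T cell-like, 3.54 to 6.69 in mast/basophil-like, 3.56 to 5.96 in neutrophil-like and 3.12 to 4.97 in macrophage-like cells. The lowest ratios were those of plasma cell-like cells, 2.0 to 2.42, progenitor-like cells, 1.94 to 3.06, the Car1 class, 2.32 to 2.86, and the Cited1 cluster, 1.88 in PBS to 3.70 in Decoy 2. B cell-like and plasma cell-like cells, named from markers of an earlier and a later stage of the B lineage, had the highest and the lowest median ratio, 19.6 and 2.17. Rps27l was higher in plasma cell-like cells than in the mean of the others by 1.05 (SE 0.07, adjusted p = 1.03e-15). Rps27 did not pass there, with a log2 difference of -0.04 (SE 0.08, adjusted p = 0.676).

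**Figure D3:**
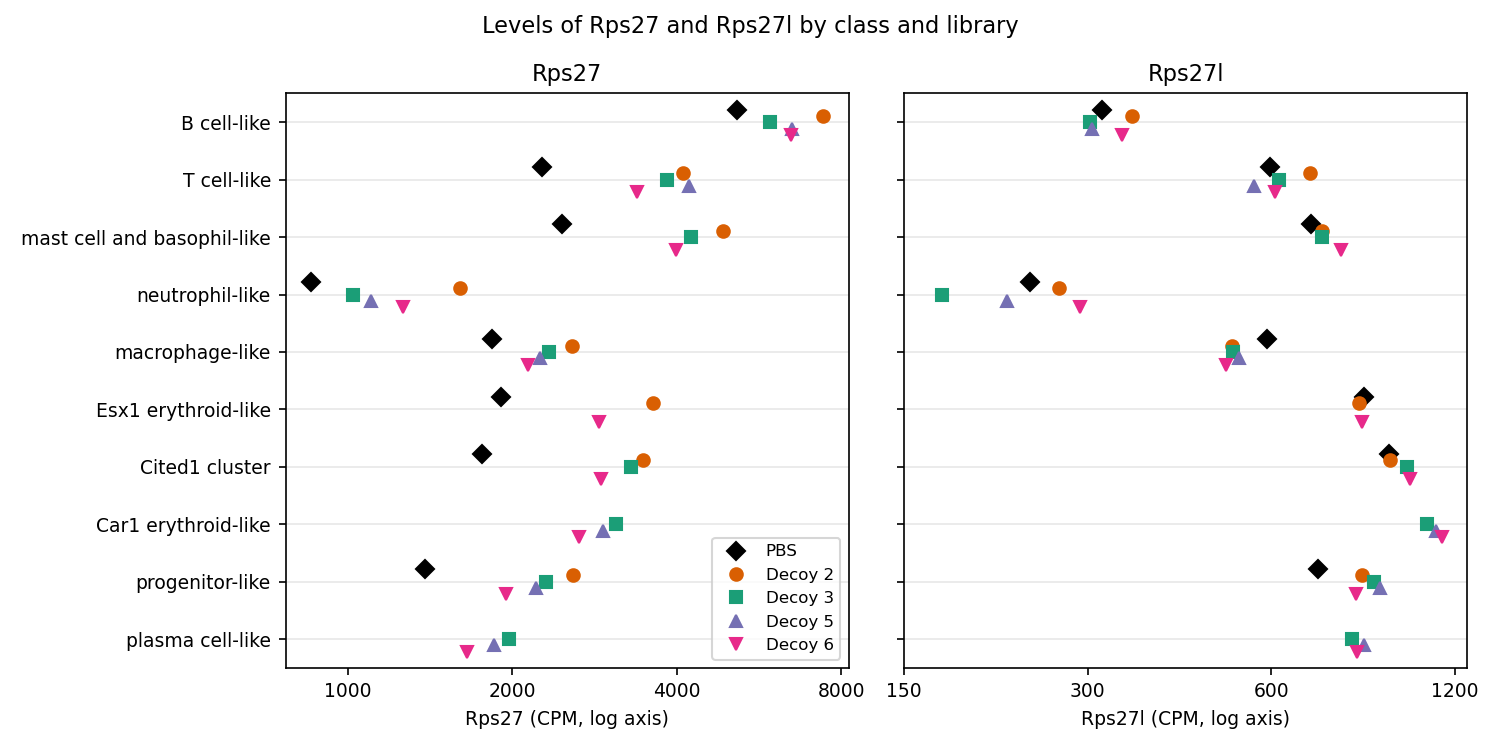
CPM of Rps27 and Rps27l on log axes, with 1 point per class and library of at least 50 cells. B cell-like cells have the highest Rps27, 5155 to 7413 CPM, beside a low Rps27l of 302 to 355 CPM, and the PBS library has the lowest Rps27 in each class with both groups.

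The other pairs of copies showed smaller contrasts. Rpl22 and Rpl22l1 encode alternative forms of a large subunit protein with roles in lymphocyte development, and both were called higher in the Cited1 cluster (0.34, SE 0.06, and 0.71, SE 0.09) and in B cell-like cells (0.56, SE 0.06, and 0.59, SE 0.08). In plasma cell-like cells they parted, with Rpl22l1 lower (-0.82, SE 0.12, adjusted p = 5.03e-07) and Rpl22 at -0.01 (SE 0.08, adjusted p = 0.921). Rpl7l1, a low-level relative of Rpl7, ranged from 34.6 CPM in plasma cell-like to 151 CPM in Car1 erythroid-like cells. It was highest against the mean in the Car1 class (0.70, SE 0.06, adjusted p = 5.61e-12), where Rpl7 differed by 0.20 (SE 0.08, adjusted p = 0.0255, and 0.243 with RLE factors).

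Rpl14, a large subunit protein, had the largest difference of all members in the Cited1 and Esx1 classes and the next to largest in the mast/basophil-like class. Its levels were 4611 to 5530 CPM in the libraries of the Cited1, mast/basophil-like and Esx1 classes and at most 3740 CPM in any library of the other classes. Its log2 differences were 0.94 (SE 0.10), 0.99 (SE 0.10) and 0.89 (SE 0.12) in these 3 classes, with adjusted p of at most 1.77e-07. Its levels in the Car1 class were the next, at 3409 to 3740 CPM. In macrophage-like cells it had the largest deficit of all members, -1.05 (SE 0.11, adjusted p = 3.18e-10), followed by Rpl5 at -0.998 (SE 0.09), which carries a ribosomal RNA into the large subunit and can bind the p53 regulator Mdm2. Rpl10a reached 1.01 (SE 0.08, adjusted p = 1.82e-12) in the mast/basophil-like class.

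Rpl41, which encodes the shortest ribosomal protein, had the highest median level of all members in 6 classes, from 6285 CPM in progenitor-like to 9963 CPM in Cited1 cells. In plasma cell-like cells it stood at 6445 to 6949 CPM and was called higher there, with a log2 difference of 0.65 (SE 0.08, adjusted p = 2.27e-08). There Rpl10, a late-joining large subunit protein, was also higher (0.67, SE 0.07) and the small subunit gene Rps12 lower (-0.76, SE 0.10). Rps24 led in B cell-like cells, at 8882 to 10856 CPM, and was called lower in progenitor-like cells (-0.64, SE 0.06) and in the Car1 class (-0.21, SE 0.07). Rps29 led in macrophage-like cells, at 4196 to 6571 CPM.

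The stalk genes Rplp0, Rplp1 and Rplp2, whose proteins hold the elongation factors, were called higher in the Cited1, mast/basophil-like, B cell-like, Esx1 and Car1 classes and lower in macrophage-like, progenitor-like and neutrophil-like cells, all 3 in each. The largest deficits were in neutrophil-like cells, where Rplp1 was lower by a log2 difference of -1.21 (SE 0.09) and Rpl12, at the base of the stalk, of -1.24 (SE 0.09). Rpsa, a small subunit protein also known as a laminin receptor, ranged from 1291 CPM in neutrophil-like to 7829 CPM in Esx1 cells. Genes whose loss causes Diamond-Blackfan anaemia, a failure of red cell production, did not stand together in the erythroid-like Car1 class. Rpl5 was higher there by 0.44 (SE 0.10), Rpl11 was higher by 0.19 (SE 0.08, adjusted p = 0.0290), and Rps19 (-0.04, SE 0.08), Rps26 (0.17, SE 0.10) and Rpl35a (0.01, SE 0.07) did not pass the test. With RLE factors Rpl11 (0.10, adjusted p = 0.258) no longer passed and Rpl35a stood at -0.08, while Rpl5 (0.36) stayed higher.

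The small subunit gave fewer UMIs than the large one in every class and has fewer members, and the ratio between them varied little. It lay between 0.769 and 0.867 over the class and library sums. The mean over libraries was 0.848 ± 0.0172 (SD, n = 5) in neutrophil-like, 0.834 ± 0.0109 (n = 5) in B cell-like and 0.830 ± 0.00801 (n = 5) in progenitor-like cells, and 0.781 ± 0.00683 (n = 4) in the Cited1 cluster and 0.771 ± 0.0022 (n = 3) in plasma cell-like cells. Between treatments the ratio was 0.791 in PBS and 0.776, 0.779 and 0.777 in Decoy 2, 3 and 6 in the Cited1 cluster. It was 0.790 in PBS and 0.780, 0.770 and 0.774 in the mast/basophil-like class. In both, and in B cell-like and Esx1 cells, PBS lay above every Decoy library of at least 50 cells. In macrophage-like, T cell-like, neutrophil-like and progenitor-like cells it did not.

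The next comparison asked what CpG-STAT3dODN changed in these mRNAs within a class. Decoy libraries were compared with the PBS library in a fit for each class, in edgeR with TMM scaling, and levels from here on are CPM on that scale. All fits share the one PBS library, so an effect of treatment and a property of that library cannot be told apart, and the spread comes from the Decoy libraries. The labels do not say whether libraries came from separate animals, and the p-values therefore speak only of how much these libraries vary. All 80 members passed the filter on low counts in every fit.

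In the Cited1 cluster 12 members were higher after CpG-STAT3dODN and 0 lower, where 1.68% of 14296 genes were called higher and 0.21% lower. They were Rpl34, Rpl35a, Rpl36, Rpl37, Rpl37a, Rpl38, Rpl39 and Rpl41 of the large and Rps21, Rps27, Rps28 and Rps29 of the small subunit. Rpl38, known in mouse embryos for its part in translating homeobox mRNAs, was at 2622 CPM in PBS and at 5854, 5029 and 4460 CPM in Decoy 2, 3 and 6. The log2 fold change was 0.96 (SE 0.14, adjusted p = 0.00164). Rps28 was at 3211 CPM in PBS and at 7089, 6228 and 5406 CPM, a change of 0.96 (SE 0.14, adjusted p = 0.00164). Rps27 was at 1696 CPM in PBS and at 3525, 3304 and 2976 CPM, a change of 0.95 (SE 0.12, adjusted p = 0.000684). The groups did not overlap for any of these, as for the 27.5% of all genes that lay above PBS in every Decoy library, and within each the Decoy values ran from Decoy 2 down to Decoy 6.

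Rps29 and Rpl41 rose by 0.91 (SE 0.15, adjusted p = 0.00368) and 0.77 (SE 0.11, adjusted p = 0.0015) in the Cited1 cluster, Rpl41 being at 5987 CPM in PBS and at 10524, 10171 and 9990 CPM in the Decoy libraries. The median over all 80 members was 0.08, beside 0.00 over all genes tested, and it was 0.08 for the small and for the large subunit alike, so the middle of the family lay near 0. The copy Rps27l, at 901 CPM in PBS and 953, 1005 and 1034 CPM in the Decoy libraries, stood at 0.15 on the log2 scale (SE 0.10, adjusted p = 0.696). The most negative value was that of Rpl10, at 3862 CPM in PBS and 2970, 3194 and 3043 CPM in the Decoy libraries (-0.33, SE 0.10, adjusted p = 0.143), which did not pass. Rplp0 and Rpsa, at -0.04 each (SE 0.11 and 0.10), overlapped between groups. Without Decoy 3, 1 of the 12 calls held, that of Rps27, with all 12 still in the same direction, and without Decoy 2 or Decoy 6 all 12 held. Over all genes 81 of 14636 were higher without Decoy 3.

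The mast/basophil-like class, which shares the PBS library but none of the cells, had 10 members higher and 0 lower (0.929% and 0.381% of 12062 genes). They were the 12 named above without Rpl34 and Rpl35a. Rps29 was at 4598 CPM in PBS and at 10370, 8401 and 7371 CPM in Decoy 2, 3 and 6, a change of 0.92 (SE 0.16, adjusted p = 0.0110). Rpl38 was at 2773 CPM in PBS and at 6231, 5325 and 4686 CPM, a change of 0.97 (SE 0.15, adjusted p = 0.00512). Rpl5, at 2290 CPM in PBS and 1827, 1657 and 1627 CPM in the Decoy libraries, had the most negative value (-0.43, SE 0.11, adjusted p = 0.117) and did not pass. Leaving out Decoy 6 gave 17 members higher and 2 lower, where 231 of 12563 genes were higher and 69 lower.

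Markers of other cells differed between the groups in these classes too, and their part in the results was not tested. In the Cited1 cluster the summed neutrophil markers, 10 of 10 detected, were at 20.4 CPM in PBS and 42.6 to 83.4 CPM in the Decoy libraries, and the B cell markers at 2.17 CPM and 4.43 to 19.7 CPM. Its mast cell and basophil markers, of which Tpsab1 and Tpsb2 were at 0, summed to 1746 CPM in PBS and 1784 to 2185 CPM. In the mast/basophil-like class the erythroid markers, 10 of 10 detected, were at 4469 CPM in PBS and 5954 to 13116 CPM in the Decoy libraries. NK cell markers, with Klrk1 and Klra8 at 0 in PBS, were at 87.4 CPM in PBS and 38.3 to 57.7 CPM in the Decoy libraries.

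Macrophage-like cells showed the other picture, with 27 members lower and 0 higher (1.43% and 1.59% of 13483 genes). Rpl10 was at 3349 CPM in PBS and at 1819, 1950, 1865 and 1831 CPM in Decoy 2, 3, 5 and 6, a change of -0.84 (SE 0.08, adjusted p = 0.0224). Rpl5 was at 1234 CPM in PBS and at 809, 686, 652 and 629 CPM (-0.83, SE 0.14, adjusted p = 0.0453). Rps7, a small subunit protein, was at 3309 CPM in PBS and at 1999, 1916, 1834 and 2119 CPM (-0.75, SE 0.10, adjusted p = 0.0271). In each, PBS stood clear above 4 Decoy libraries that were close to one another. In this fit 32.3% of all genes lay below PBS in every Decoy library. The called members also held Rpl14 (-0.80, SE 0.14), Rps4x (-0.75), Rps6, the target of S6 kinase (-0.68), and the stalk protein Rplp0 (-0.69, SE 0.09). 16 of the 27 belonged to the large and 11 to the small subunit, whose medians over all members were -0.44 and -0.40. The median of the 80 members was -0.42, beside 0.07 over all genes tested. A near copy of Rpl10, Rpl10-ps3, held 41839 UMIs over all barcodes and could share reads with it.

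None of the 20 members with the shortest coding sequences was among those called lower. Rpl38 was at 1874 CPM in PBS and at 3302, 2785, 2559 and 2424 CPM in the Decoy libraries of macrophage-like cells, a log2 difference of 0.56 (SE 0.18, adjusted p = 0.149). Rps27 stood at 0.40 on the log2 scale (SE 0.11, adjusted p = 0.115) and Rpl41 at 0.32 (SE 0.11, adjusted p = 0.176), and none of the 3 passed although PBS lay below every Decoy library, as it did for 39.6% of all genes. Of the 27 calls 0 held without Decoy 3, 0 without Decoy 6, 1 without Decoy 5 (Rpl10) and 0 with finer clusters (resolution 1.0), with all 27 lower in each of these fits. Over all genes these fits called 0, 32, 58 and 0 lower, in the same order. Without Decoy 2 the count of members was 42 and in DESeq2 56, but calls over all genes rose too. They were 193 of 13483 genes lower in the main fit, 587 of 13374 without Decoy 2 and 409 of 13483 in DESeq2.

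The macrophage-like cells of the groups also differed in make-up and depth, whose part in the result was not tested. Their median UMIs per cell were 4865 in PBS and 14952 to 20395 in the Decoy libraries. Macrophage markers, 10 of 10 detected, summed to 3619 CPM in PBS and 5891 to 8611 CPM, erythroid markers to 8513 CPM and 2127 to 5535 CPM, and neutrophil markers, with Ltf and Mmp9 at 0 in PBS, to 151 CPM and 3533 to 5918 CPM. Endothelial and stromal markers, 6 of 10 detected in PBS with Col1a1, Dcn, Pdgfrb and Emcn at 0, summed to 220 CPM and 99.4 to 161 CPM. Restricted to cells with at least 5000 UMIs, 20 of the 27 members were still called lower and the median was -0.38. In that fit 168 of 13432 genes were lower.

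No member was called in the other class fits. B cell-like cells had 0 of 80 (0% of 11077 genes) in edgeR, and 12 higher and 4 lower in DESeq2. Progenitor-like cells had 0 of 80 (0.591% of 11166 genes higher and 0.824% lower) in edgeR, and 13 and 3 in DESeq2. T cell-like cells had 0 of 80 (0% of 10517 genes) in edgeR, and 11 and 1 in DESeq2. Neutrophil-like cells had 0 of 80 (0% of 9506 genes) in edgeR, and 0 in DESeq2. The share of all genes that DESeq2 called in these classes is not given here, so its counts cannot be set against it. The PBS sums in these fits came from 64 to 200 cells. Values of single members were nonetheless large. Rpl41 was at 3854 CPM in PBS and at 8504, 7821, 8424 and 7892 CPM in the Decoy libraries of B cell-like cells, a log2 difference of 1.08 (SE 0.12) with an adjusted p of 0.0528 in edgeR. Rps29 was at 3374 CPM in PBS and at 7753, 5837, 6136 and 5158 CPM in T cell-like cells, a log2 difference of 0.88 (SE 0.21, adjusted p = 0.233). Rpl38 was at 1803 CPM in PBS and at 3849, 3240, 3108 and 2617 CPM in progenitor-like cells, a log2 difference of 0.83 (SE 0.19, adjusted p = 0.0956). In all 3 the groups did not overlap, and in the same fits 31.0%, 29.95% and 28.2% of all genes lay above PBS in every Decoy library.

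Depth and markers of other cells differed between the groups in these classes as well, and their part in the values was not tested. In B cell-like cells the median UMIs per cell were 3929 in PBS and 6256 to 9094 in the Decoy libraries, and the erythroid markers, 10 of 10 detected, summed to 7566 CPM in PBS and 77.6 to 763 CPM. In T cell-like cells the median UMIs were 6034 and 7620 to 15196, and the erythroid markers, 10 of 10 detected, were at 4545 CPM and 114 to 2025 CPM. In progenitor-like cells the neutrophil markers, 10 of 10 detected, were at 28709 CPM in PBS and 8251 to 20546 CPM in the Decoy libraries.

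Over all kept cells, 0 of 80 members and 0% of 16006 genes were called. At an unadjusted p under 0.05 in edgeR 1 member was higher and 1 lower, where 1667 of the 16006 genes passed. DESeq2 called 0 members, beside 2003 genes higher and 26 lower. The median of the members was -0.33, beside 0.02 over all genes. Their summed share of UMIs was 33.6% in PBS and 34.5%, 26.0%, 24.7% and 29.8% in Decoy 2, 3, 5 and 6. In these sums a change in the mix of classes and a change within cells cannot be told apart. The Cited1 cluster and the mast/basophil-like class held 11173 and 3198 of the 16034 PBS cells, and 4 and 0 of the 3607 cells of Decoy 5.

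8 of 80 members lay above PBS in every Decoy library of all 7 class fits, where 1.59% of the 8663 genes tested in all of them did. They were Rpl37a, Rpl38, Rpl39, Rpl41, Rps21, Rps27, Rps28 and Rps29. 7 of 80 lay below PBS in every one (1.05% of all genes), Rpl10, Rpl12, Rpl13a, Rpl5, Rpl7, Rps3a1 and Rps6. The fits share the PBS library, so each class's own values are given side by side. The log2 fold change of Rps28 was 0.96 in the Cited1 cluster, 0.93 in mast/basophil-like, 0.80 in B cell-like, 0.80 in T cell-like, 0.78 in progenitor-like, 0.72 in neutrophil-like and 0.36 in macrophage-like cells. That of Rpl10 was -0.33, -0.37, -0.42, -0.39, -0.47, -0.59 and -0.84 in the same order. Rps28 was called in the first 2 and Rpl10 in the last.

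What the members that lay above PBS share is a short coding sequence, a property that the choice of members did not use and that was looked at after the fold changes had been seen. The 80 members were ordered by coding length without the stop codon and divided into 4 sets of 20, with 75 to 366 bases in the first, 369 to 453 in the second, 456 to 612 in the third and 624 to 1257 in the fourth. All 12 members called in the Cited1 cluster and all 10 called in the mast/basophil-like class were in the first set. The 27 called lower in macrophage-like cells fell 0, 3, 11 and 13 over the 4 sets. Median log2 fold changes over the sets were 0.57, 0.14, -0.04 and -0.06 in the Cited1 cluster, and 0.01, -0.37, -0.54 and -0.63 in macrophage-like cells, so the values fell from short to long in both, from a lower start in macrophage-like cells.

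As a description across genes, which share their libraries and are not independent, Spearman's rho of the log2 fold change with coding length over the 80 members was -0.84 in the Cited1 cluster, -0.84 in mast/basophil-like, -0.78 in macrophage-like, -0.72 in B cell-like, -0.85 in progenitor-like, -0.80 in neutrophil-like and -0.81 in T cell-like cells. Over the 9129 to 12271 other genes with a coding length in the same fits it was -0.11 to 0.04. With mRNA length in place of coding length it was -0.53 to -0.61 over the members. The small and the large subunit members each gave it on their own, at -0.87 and -0.81 in the Cited1 cluster. Among other genes of the Cited1 fit, 11.6% of 423 with a coding length of at most 330 bases were called higher, against 1.06% of 10194 with over 650 bases.

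Not every short member followed. In the Cited1 cluster the 20 shortest ran from 0.96 for Rpl38 to 0.05 for Rpl22l1. Rps27l, of the same coding length as Rps27, stood at 0.15 where Rps27 stood at 0.95, and Rps20, with 357 coding bases and an annotated mRNA of 3706 bases, at 0.10. Of the members with 315 to 330 coding bases, Rpl36 at 0.69 and Rpl35a at 0.45 were called and Rpl36a at 0.43 was not. Rpl36a has a near copy, Rpl36al, whose 1289721 UMIs could include shared reads.

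**Figure D4:**
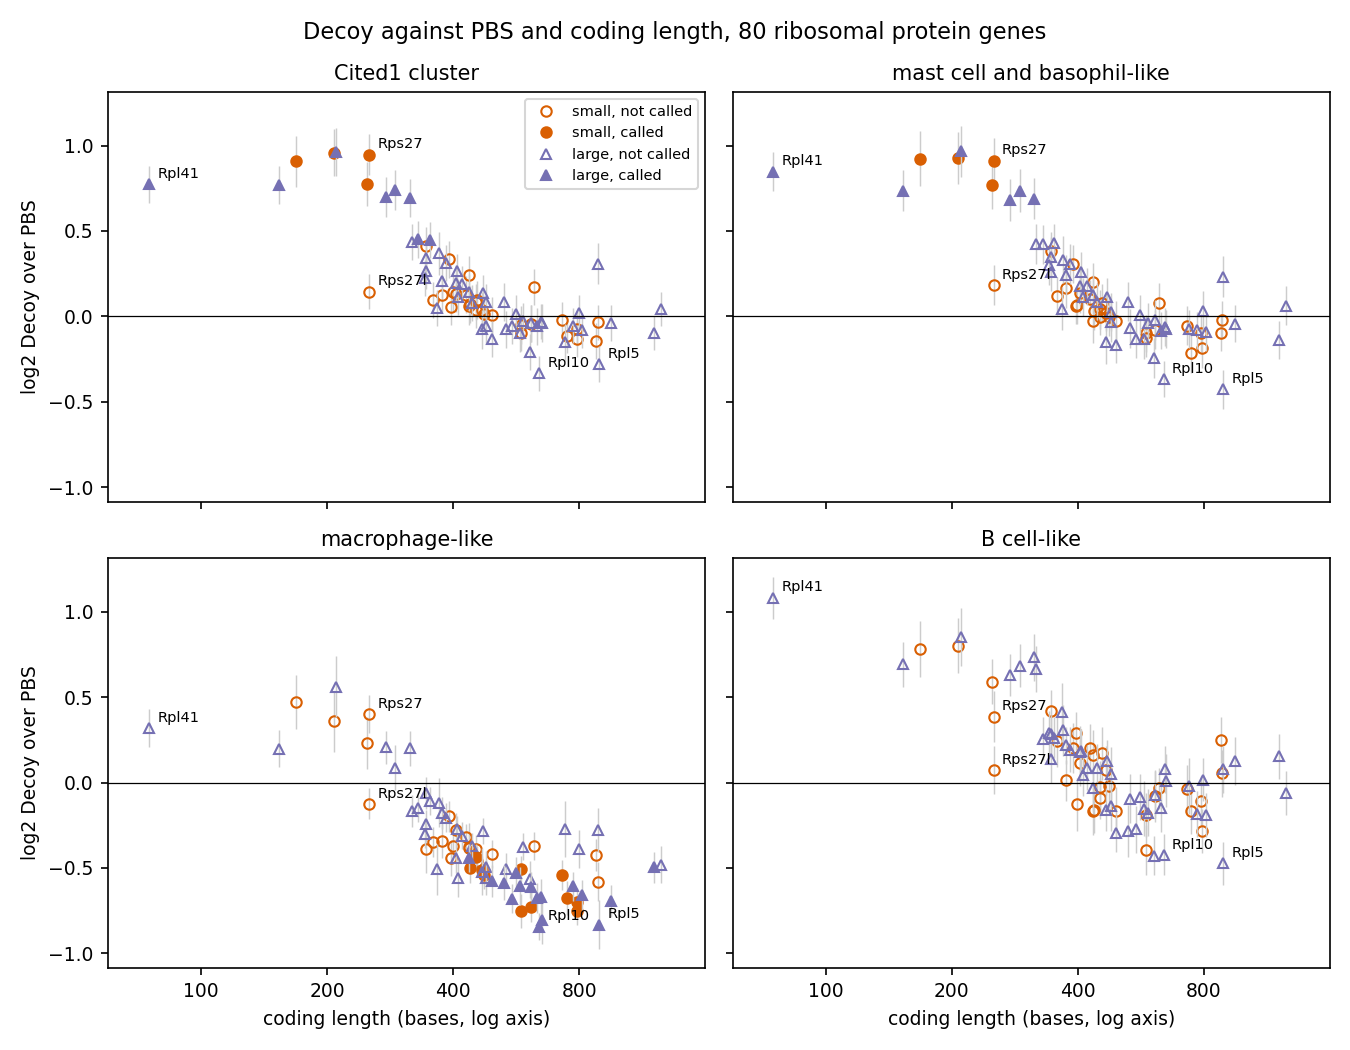
Log2 fold change of each of the 80 members between Decoy and PBS libraries (bars are the standard error from edgeR) against coding length in bases on a log axis, in 4 classes, with small subunit members as circles, large subunit members as triangles and called members filled. In each panel most of the shortest members lie highest, and in macrophage-like cells the members lie lower than in the other 3, with a median of -0.42.

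Summed, the 20 shortest members took 20.4% of member UMIs in PBS and 28.5%, 27.3% and 25.7% in Decoy 2, 3 and 6 of the Cited1 cluster. In B cell-like cells they took 22.5% in PBS and 31.9%, 30.5%, 29.5% and 28.9% in Decoy 2, 3, 5 and 6, and in macrophage-like cells 22.6% and 31.4%, 30.9%, 29.7% and 28.8%. Over all classes the PBS values were 19.9% to 22.8% and the Decoy values 25.2% to 31.9%, and PBS was the lowest library in 8 of 8 classes with both groups. The Decoy libraries, which have no order of their own, stood in one order throughout, with Decoy 2 above 3 above 6 in 7 of 7 classes and 3 above 5 above 6 in 7 of 7. Treatment and library cannot be told apart with 1 PBS library.

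**Figure D5:**
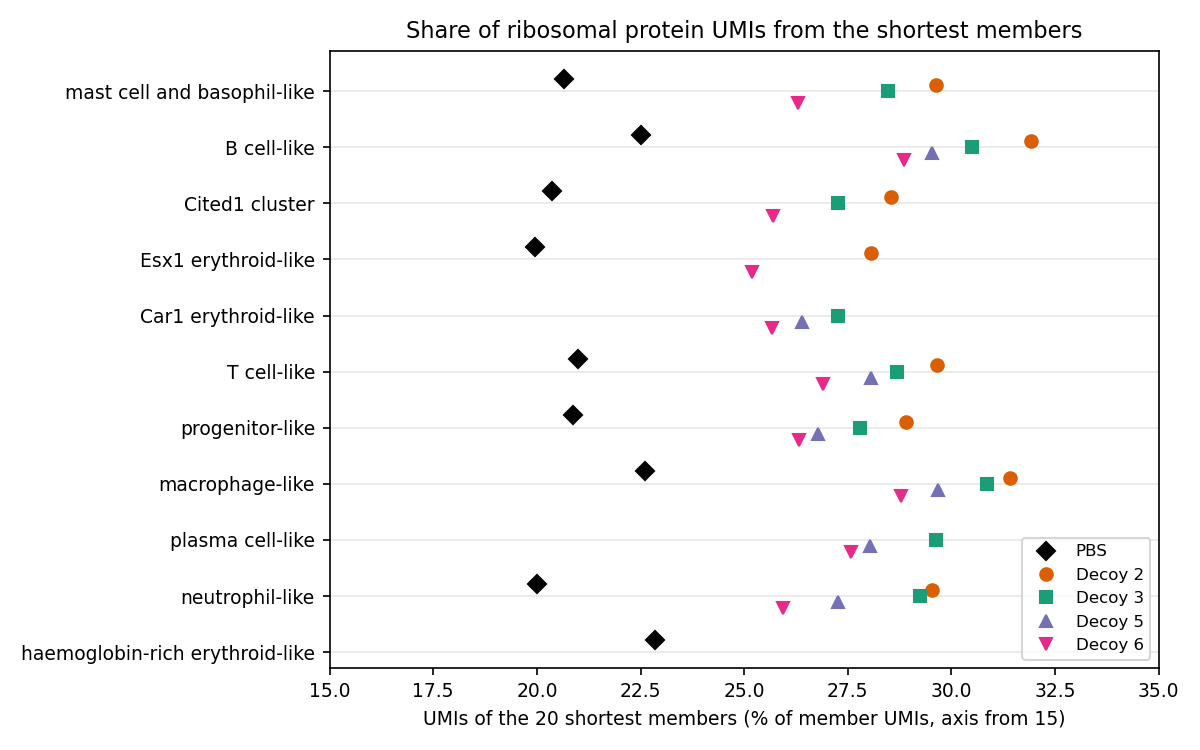
UMIs of the 20 members with the shortest coding sequences as a percentage of all member UMIs, by class and library, on an axis that starts at 15%. PBS lies at 19.9% to 22.8% and every Decoy library at 25.2% to 31.9%, in classes with Xist and in classes with Y-linked mRNA.

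Other genes of the protein-making machinery did not track the members everywhere. Of 20 translation factors and other mRNAs with the same pyrimidine tract, 17 were higher and 1 lower in the Cited1 cluster, 12 and 1 in the mast/basophil-like class, and 0 and 20 in neutrophil-like cells, on the side of the members each time. Ribosome biogenesis factors, which assemble the subunits in the nucleolus, did so in the Cited1 cluster (50 of 50 higher, with Polr1b at 1.34), the Car1 class (50 of 50, with Ncl at 2.10) and macrophage-like and neutrophil-like cells (50 of 50 lower in each). In B cell-like cells, where 69 members were higher, 31 biogenesis factors were lower and 1 higher, and in the mast/basophil-like class 20 were lower and 5 higher. Mitochondrial ribosomal proteins, a separate family, were mostly lower in both of these classes (49 of 78 in each) and higher in the Cited1 cluster (65 of 78) and the Car1 class (72 of 78).

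Between treatments most genes of these lists were not called. Of the 50 biogenesis factors Taf1d (0.53, SE 0.12, adjusted p = 0.0419) and Utp4 (0.47, SE 0.10, adjusted p = 0.0292) were higher in the Cited1 cluster (1.68% of all genes). Nhp2 and Npm1 were lower in macrophage-like cells, where 1.43% of all genes were. Of the 20 pyrimidine-tract mRNAs Eef1b2 (-0.93, SE 0.09, adjusted p = 0.0229), Npm1 and Tpt1 were lower in macrophage-like cells. The median of these 20 there was -0.39, beside 0.07 over all genes and -0.42 over the members. Of 78 mitochondrial ribosomal proteins, Mrpl52 was higher in the Cited1 cluster (0.59, SE 0.11, adjusted p = 0.00788). It was also higher in the mast/basophil-like class (0.59, SE 0.12, adjusted p = 0.0315), where 0.929% of all genes were. Fau and Rack1, ribosomal proteins that carry other names, were not called in any fit. By the correlation of log2 CPM with the members' summed level over 42 class and library sums of 10 classes, which share libraries and depth, the genes most alike among 12839 were Eef1a1 (r = 0.982), Eef1b2 (0.981), Eif3e (0.975), Rack1 (0.966) and Naca (0.956).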

How the data were processed

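Single-cell libraries of sorted mouse cells, 1 after PBS and 4 after CpG-STAT3dODN, were used as deposited matrices of UMI counts. The authors made these counts per gene and barcode with Cell Ranger, version 5.0.0 per the file headers and 3.1 per the submitters' processing notes, on mm10. No further step of theirs is in the values used. Cells with at least 1000 UMIs, at least 500 genes and at most 10% mitochondrial UMIs were kept, and doublets marked by scanpy 1.11.5 were removed. The caller marked 6.88% of PBS cells and 0% to 0.412% of Decoy cells, below the expected 1.96% to 15.5%, so removal at the expected rate was an alternative. Cells were clustered on 2000 variable genes without the ribosomal ones (30 components, 15 neighbours, Leiden resolution 0.5). A cluster was named from at least 3 of 16 lists' markers that were in at least 10% of its cells and at least 2-fold higher, and clusters with profiles correlated at 0.85 or more were merged.

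Counts were summed per library and class with at least 50 cells. edgeR 4.0.16 (R 4.3.3) quasi-likelihood tests with TMM scaling were run over all genes that passed filterByExpr, with Benjamini-Hochberg adjustment and calls under 0.05. DESeq2 1.42.0, RLE scaling, scaling on non-member genes, no low-count filter, resolution 1.0, and leaving out each Decoy library were alternatives. Coding lengths are from GENCODE vM21 (GRCm38). Genes were named as the extreme members of each comparison, with close copies, stalk proteins and Diamond-Blackfan anaemia genes. Members, lists and rules were chosen with earlier results of these data known. Procedures were tested on simulated data. Some genes are not reported here.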

Additional observations from a re-analysis of the deposited data

Results flagged for a closer look

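Among 29 sets of 4 Decoy libraries examined, 2 held a library set apart from the rest, where chance sets apart about 1 in 20. In B cell-like cells the ratio of small to large subunit UMIs was 0.817 in Decoy 2, and the nearest other Decoy library was at 0.835. Over all kept cells Rps27 was at 3768 CPM (TMM scale) in Decoy 2, and the nearest was at 2969 CPM.

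The summed share of the members moved in opposite directions between classes. The Decoy mean minus PBS was -5.81 percentage points in macrophage-like cells, with all 4 Decoy libraries below PBS in share but above it in member UMIs per cell. It was 2.08 points in the Cited1 cluster, 1.69 in the mast/basophil-like class and 1.98 in B cell-like cells, with every Decoy library above PBS. The difference between classes was not tested, and all 4 values share the PBS library.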

How the results depend on the processing

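No paired analysis was possible because the single PBS library shares no number with Decoy 2, 3, 5 or 6. Of the values for whole comparisons under alternatives, 548 stayed and 67 moved, and 4 changed sign, none of them a tested value. They were the T cell-like share difference with doublets removed at the expected rate (-0.96 to 0.613 points) and the difference in subunit ratio in macrophage-like cells at resolution 1.0 (-0.0047 to 0.0097), in T cell-like cells without Decoy 2 (-0.0021 to 0.00073) and over all kept cells without Decoy 5 (0.0041 to -0.00096). Single members were checked only where they were among the 4 highest or 4 lowest of a Decoy against PBS comparison, and none of these changed sign. Members named near 0, such as Rplp0 and Rpsa in the Cited1 cluster, were not checked. Of the values checked, 605 stayed on their side of the threshold, 48 passed it newly and 19 no longer did. The cause was not tested for any that moved. Counts below are members called higher, then lower, in Decoy against PBS unless a class contrast is named.

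DESeq2 gave 1 lower in the Cited1 cluster and in the mast/basophil-like class, 56 lower in macrophage-like, 12 and 4 in B cell-like, 13 and 3 in progenitor-like and 11 and 1 in T cell-like cells. In the class contrasts it gave 27 and 8 in the Car1 class and 4 and 28 in T cell-like cells, and RLE factors gave 25 and 7, 4 and 25, and 17 lower in plasma cell-like cells. With no low-count filter 1 was lower in the mast/basophil-like class, 1 higher in B cell-like, 5 in progenitor-like and 1 in T cell-like cells, and 0 higher in the T cell-like contrast. With doublets removed at the expected rate, macrophage-like cells had 43 lower (beside 254 of 13097 genes), a median of -0.53 and a share difference of -7.02 points. B cell-like cells then had 6 higher, progenitor-like cells 8 and 1, and T cell-like cells 1 higher, a median of -0.0028, a share difference of 0.613 points and a subunit ratio difference of -0.013. The class contrasts then had 0 lower in the Car1 class and 5 higher in T cell-like cells. At resolution 1.0 macrophage-like cells had 0 lower, a median of -0.58, a share difference of -9.07 points and a ratio difference of 0.0097, and progenitor-like cells 9 and 1. In cells of at least 5000 UMIs, an alternative chosen after seeing the data, the macrophage-like median was -0.38.

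Leaving out 1 Decoy library gave 0 to 1 lower over all kept cells, 1 to 17 higher and 0 to 1 lower in the Cited1 cluster (1 without Decoy 3), and 10 to 17 higher and 0 to 2 lower in the mast/basophil-like class (17 without Decoy 6). Macrophage-like cells had 0 to 1 higher, 0 to 42 lower and a median of -0.46 to -0.42, in fits that called 0 to 587 genes lower. Progenitor-like cells had 0 to 11 higher and 0 to 1 lower, and T cell-like cells 0 to 5 higher, both most without Decoy 2. In the class contrasts progenitor-like cells had 32 to 63 lower, T cell-like cells 11 to 35 and plasma cell-like cells 7 to 27, each fewest without Decoy 6, and the Car1 class 16 to 41 higher (fewest without Decoy 5) and 0 to 1 lower. Neutrophil-like cells had 63 to 221 cells a library and T cell-like cells 65 to 193, which limits the precision of their sums.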
